A study of Mus musculus with 4 samples.

Results

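The nuclear genes of oxidative phosphorylation were read from a table of RNA-seq counts of mouse embryonic stem cells (ESCs). Members were the rows whose symbol starts with Nduf followed by a, b, c, s or v, is Sdha, Sdhb, Sdhc or Sdhd, starts with Uqcr, starts with Cox4 to Cox8, or starts with Atp5. The rule found 84 of the 26301 genes in the table. It took 35 subunit genes of complex I, 3 of complex II, 7 of complex III, 17 of complex IV and 15 of complex V. It also took 2 assembly factors of complex I, Ndufaf1 and Ndufa12l (named Ndufaf2 in RefSeq), and 5 genes that are given apart, Ndufa4, Ndufa4l2, Cox4nb, Cox7a2l and Atp5s. The study compared WT ESCs of line N6 with REST-/- ESCs of line N8, which lack the transcriptional repressor REST. Both lines were grown with LIF and serum on irradiated embryonic fibroblasts and then passaged on gelatin to remove these feeder cells. Each genotype had 2 biological replicates and was a single line, so genotype and line cannot be told apart. No treatment or differentiation separated the groups.

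Oxidative phosphorylation takes place in the inner mitochondrial membrane. Complexes I and II pass electrons to ubiquinone, complex III passes them on to cytochrome c, and complex IV, cytochrome c oxidase, passes them to oxygen. Complexes I, III and IV pump protons, and complex V, the ATP synthase, uses the proton gradient to make ATP. Mitochondrial DNA encodes a few core subunits, and the other subunits come from nuclear genes such as those described here. Pluripotent stem cells are known for a strong reliance on glycolysis.

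The 4 libraries held 22293966 to 30953863 counts. Levels are CPM, counts relative to library size after TMM scaling, and fold changes compare REST-/- with WT on the log2 scale. Rest itself was at 255 and 233 CPM in WT and at 164 and 176 CPM in REST-/- ESCs, which edgeR's quasi-likelihood test put at -0.52 on the log2 scale (adjusted p = 0.526, standard error 0.13), and sums over the whole gene do not show which exons the reads cover. The ESC marker Pou5f1 was at 670 to 751 CPM in all 4 libraries. Of 9 ESC markers, 4 had a fitted value above 0 and 5 below. Both REST-/- libraries were below both WT libraries for 3 of them, Zfp42 (-1.36), Nanog (-0.46) and Klf4 (-0.44), where the share over all genes was 15.4%, and above for 1, Utf1 (0.19), where it was 16.5%. Zfp42 was at 704.5 and 541 CPM in WT and at 258 and 226 CPM in REST-/- ESCs (adjusted p = 0.179, edgeR's quasi-likelihood test). The summed level of the list was 4828 and 4688 CPM in WT and 4132 and 4249 CPM in REST-/- ESCs. The 8 feeder fibroblast markers, with Lum at 0 in every library, summed to 29.1 and 19.3 CPM in WT and to 100.4 and 19.1 CPM in REST-/- ESCs, so 1 REST-/- library was high. The 9 primitive endoderm markers summed to 70.8 and 114.6 CPM in WT and to 139.5 and 175.6 CPM in REST-/- ESCs. Of these 9, 8 had a fitted value above 0 and 1 below. Both REST-/- libraries were above both WT libraries for 5 of them, where the share over all genes was 16.5%. The 5 neuronal markers summed to 178.6 and 202.1 CPM in WT and to 166 and 222.3 CPM in REST-/- ESCs. Most of this was Tubb3, at 157 and 183 CPM in WT and at 144 and 198.5 CPM in REST-/- ESCs. Rbfox3 was at 0.775 and 1.94 CPM in WT and at 2.32 and 4.33 CPM in REST-/- ESCs, the 1 of 4 tested without overlap. The part of these other cells in the results was not tested, and in bulk RNA fewer cells of a type and less RNA per cell cannot be told apart.

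The levels of the nuclear oxidative phosphorylation genes lay close together in the 2 genotypes, and more fitted values were below 0 in REST-/- ESCs than above. Of the 84 members, 79 passed the filter on low counts. Uqcr, Cox8a, Cox6a2, Cox8b and Cox8c did not. No member passed an adjusted p of 0.05 in edgeR's quasi-likelihood test on genotype only, against 9 of the 15444 genes tested (0.0583%). At an unadjusted p under 0.05, 4 members were found, Ndufa12, Ndufs5, Ndufb11 and Ndufa1, against 6.71% of all genes tested. A fit with replicate number as a block called 15 members and 2621 of all genes, but no stated link shows that the numbers pair the samples. Without the block, the fitted value was below 0 for 56 members and above 0 for 23. The median was -0.07, compared with -0.0047 over all genes tested. Of the tested members, 61 (77.2%) lay within 0.2 of no change, compared with 53.8% of all genes, and 73 (92.4%) lay within 0.5, compared with 81.3%. Both REST-/- libraries were below both WT libraries for 22 members (27.8%), where the share over all genes was 15.4%. Both were above for 5 members, where the share over all genes was 16.5%.

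**Figure D1:**
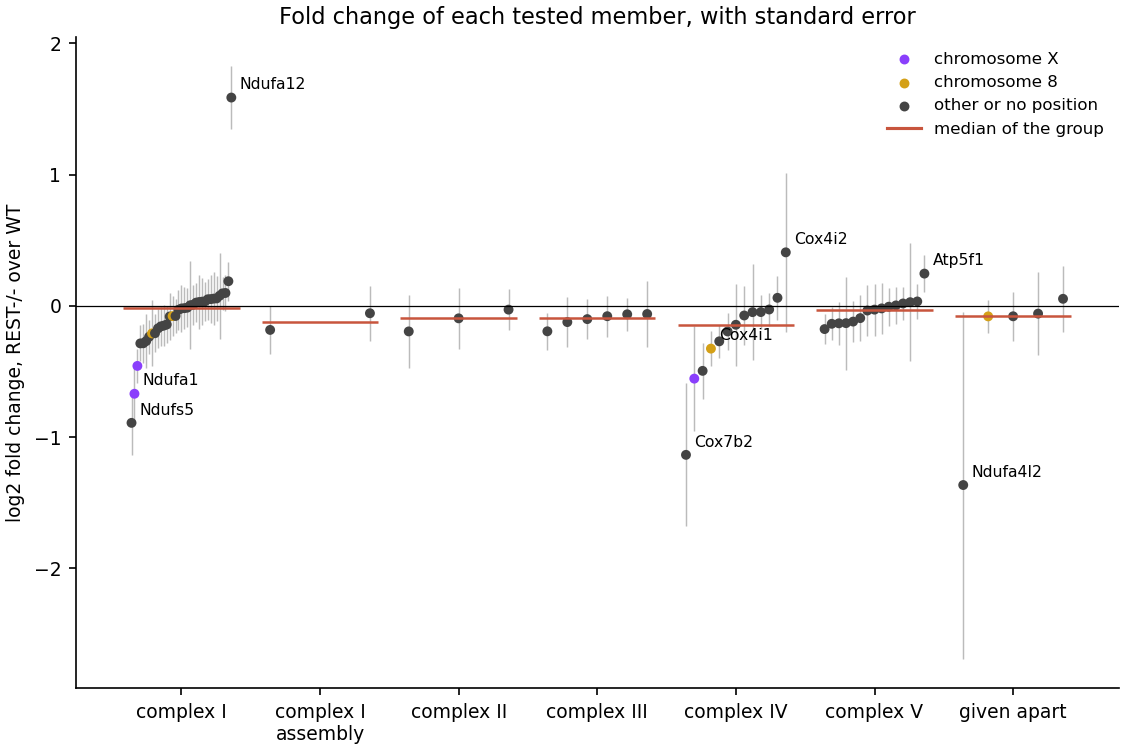
Log2 fold change of REST-/- over WT ESCs for the 79 tested members, by complex; bars are standard errors of the edgeR fit and red lines are medians. Most points lie near 0, Ndufa12 stands above at 1.59, and the members on chromosome X lie below.

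The regulatory sequence in front of some of these genes is shown first, with promoter motifs that the rule did not use and that a minority of the members hold. The 300-base windows of RefSeq (GRCm38.p6, 250 bases before to 50 after the start) held an entry for 69 of the 84 members. A few genes have more than 1 window, and a gene was counted once if any of its windows held a match. The shares were not tested. The core motifs of NRF1 (GCGCATGC), GABPA (CCGGAAG) and YY1 (AANATGGCG), regulators known at promoters of mitochondrial genes, were searched on both strands. The NRF1 motif was in 14.5% of member promoters, against 3.05% of all 27025 genes with a window and 5.7% of those of tested genes. The GABPA motif was in 24.6%, against 9.93% and 18.5%, and the YY1 motif in 14.5%, against 2.76% and 5.38%. At least 1 of the 3 was in 31 member promoters (44.9%), against 14.4% of all promoters and 26.7% of those of tested genes. For REST itself, the left part of its RE1 element (TTCAGCACC) was in 1 member promoter, that of Atp5k (1.45%, against 0.433% of all), and the right part (GACAGCGCC) was in 0 of 69, against 0.392% of all. A match is a run of letters and not a shown binding site.

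The 150 bases before the start are printed for 4 members that hold such motifs, with the matches in capitals. They stand for an ATP synthase coupling factor (Atp5j), the iron-sulfur subunit of complex II (Sdhb), an accessory subunit of complex I (Ndufa11) and a subunit of cytochrome c oxidase (Cox6a1). Their positions are chr16:84834977-84835126 on the minus strand, chr4:140961121-140961270 on the plus strand, chr17:56717612-56717761 on the plus strand and chr5:115348959-115349108 on the minus strand.
Atp5j: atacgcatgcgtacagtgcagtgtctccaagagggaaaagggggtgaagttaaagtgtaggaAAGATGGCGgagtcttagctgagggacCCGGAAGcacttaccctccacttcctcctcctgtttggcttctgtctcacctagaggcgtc
Sdhb: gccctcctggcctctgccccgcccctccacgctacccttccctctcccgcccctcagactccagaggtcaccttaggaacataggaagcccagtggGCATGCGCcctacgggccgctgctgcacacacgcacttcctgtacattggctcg
Ndufa11: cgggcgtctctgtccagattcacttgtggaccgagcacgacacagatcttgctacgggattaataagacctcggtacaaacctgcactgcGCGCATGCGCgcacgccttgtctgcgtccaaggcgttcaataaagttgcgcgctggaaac
Cox6a1: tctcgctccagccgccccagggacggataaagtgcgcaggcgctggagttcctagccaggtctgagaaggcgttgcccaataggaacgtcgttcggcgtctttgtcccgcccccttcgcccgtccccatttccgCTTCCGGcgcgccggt
Within the printed bases Atp5j holds a YY1 match followed by a GABPA match, Sdhb an NRF1 match, Ndufa11 a pair of overlapping NRF1 matches, and Cox6a1 a GABPA match close to the start. Outside them, Sdhb has a GABPA match at bases 6 to 12 after the start and Cox6a1 a pair of overlapping NRF1 matches further upstream. Atp5j has another window in RefSeq, which held no match. Of the members described later, the promoters of Ndufa1, Cox7b, Ndufa12, Ndufs5, Cox5a, Cox6b2 and Atp5f1 held no match to the 3 motifs. Others held a match, among them Ndufb11 and Atp5b (YY1), Sdhd and Uqcrh (GABPA) and Uqcrc1 (NRF1). Cox4i1 had no promoter entry.

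Complex I is the NADH dehydrogenase, and its 35 subunit genes were all tested. Their fitted values were above 0 for 15 and below 0 for 20, with a median of -0.02, and their summed level was 2624 and 2723 CPM in WT and 2448 and 2655 CPM in REST-/- ESCs. The ranges of the sum overlapped. Both REST-/- libraries were below both WT libraries for 12 of the 35 members (34.3%, against 15.4% of all genes). Both were above for 4, where the share over all genes was 16.5%. Core subunits were read first. Ndufv1, the flavoprotein that takes electrons from NADH, was at 149 and 160 CPM in WT and at 141 and 152 CPM in REST-/- ESCs. Ndufs1, the largest iron-sulfur subunit, was at 171 and 149 CPM in WT and at 193 and 172 CPM in REST-/- ESCs, above both WT values in both libraries but not past the test (log2 fold change 0.19, standard error 0.15, adjusted p = 1.0). Per length of transcript, Ndufa7 had the highest level of the complex, 273 CPM per kb. Ndufs5 (-0.89) and Ndufa12 (1.59) were the complex I members furthest from 0, and both had a near-identical copy elsewhere in the genome.

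Ndufa12, an accessory subunit, was counted 176 and 146 times in the WT libraries and 396 and 402 times in the REST-/- libraries, or 5.69 and 5.45 CPM against 15.3 and 18.15 CPM. Both REST-/- libraries were above both WT libraries, for a log2 fold change of 1.59. The standard error was 0.24 and edgeR's quasi-likelihood test gave an adjusted p of 0.215. DESeq2 and edgeR's exact test called Ndufa12 at 0.05, and no other of the 79 tested members. Of all 15444 genes, DESeq2 called 238, and the exact test called 277 with tag-wise and 344 with common dispersion. The gene lies at chr10:93661700-93684188 on the plus strand of mm9. Its level was low for the complex, 10.05 CPM per kb. A copy lies at chr5:130664263-130664666 on the plus strand, in Rabgef1 and Gm15920, with 99.5% identity and 2 differences over 404 aligned bases.

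Ndufs5, another accessory subunit, was counted 549 and 388 times in the WT libraries and 241 and 178 times in the REST-/- libraries, or 17.7 and 14.5 CPM against 9.33 and 8.04 CPM. Both REST-/- libraries were below both WT libraries, at -0.89 on the log2 scale (adjusted p = 0.601 and standard error 0.24 in edgeR's quasi-likelihood test). It lies at chr4:123389953-123395445 on the minus strand. Its copy, Ndufs5-ps (BC002163 in the table), lies at chr16:42955744-42956064 on the plus strand, with 99.4% identity and 2 differences over 321 bases. The copy was counted as a row of its own, with 29.4 and 24.3 CPM in WT and 33.5 and 31.0 CPM in REST-/- ESCs. The sum of gene and copy was 47.2 and 38.75 CPM in WT and 42.8 and 39.0 CPM in REST-/- ESCs, a log2 ratio of the means of -0.07. The genotypes overlapped in the sum and not in the gene alone, and how the counting assigned reads between the pair is not given in the sources used here.

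The sequences show how little separates each gene from its copy. The stretches are coding bases 117 to 176 of Ndufa12 with chr5:130664333-130664392, and coding bases 51 to 110 of Ndufs5 with chr16:42955794-42955853. Capitals mark the differing bases, 1 in the first stretch and 2 in the second.
Ndufa12 gene: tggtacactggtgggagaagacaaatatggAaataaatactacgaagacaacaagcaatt
Ndufa12 copy: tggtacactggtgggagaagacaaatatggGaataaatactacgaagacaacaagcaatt
Ndufs5 gene: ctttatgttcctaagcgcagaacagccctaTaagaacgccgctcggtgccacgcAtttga
Ndufs5 copy: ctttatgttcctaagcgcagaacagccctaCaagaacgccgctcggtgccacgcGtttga

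**Figure D2:**
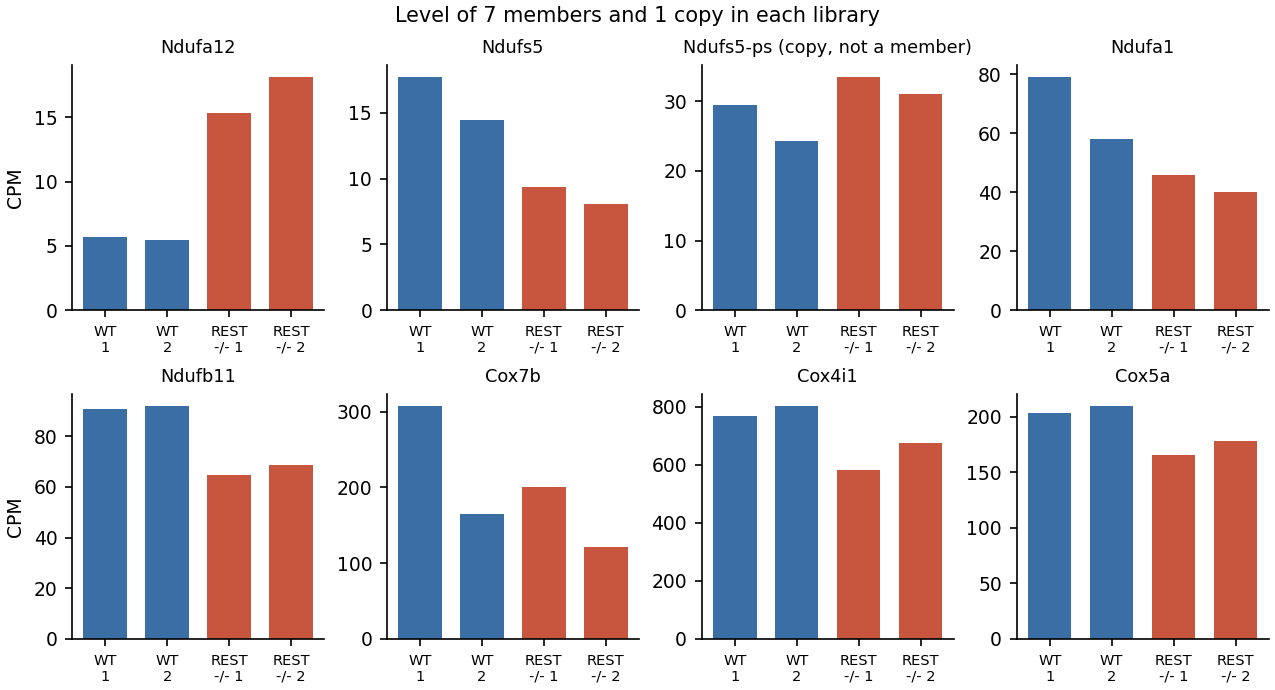
CPM of 7 members and of Ndufs5-ps in each of the 4 libraries, WT in blue and REST-/- in red. The red bars stand above the blue ones for Ndufa12 and for Ndufs5-ps, and below them for Ndufs5, Ndufa1, Ndufb11, Cox4i1 and Cox5a, while Cox7b overlaps between genotypes.

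Levels were also compared between members with and without copies. Among 83 members with a known length, the 14 with a copy of at least 98% identity had a median of 9.66 CPM per kb, the 17 whose best copy was 90 to 98% identical had 140.6, and the 52 with no copy found had 82.5. Of the 14, 7 were under 10 CPM per kb, compared with 8 of the 52, which include isoforms used mainly in other tissues. Uqcr, a small subunit of complex III, was listed at 0 in every library, and Cox8a, the common form of a complex IV subunit, had a single count in all 4 libraries together. Uqcr has 1 copy in the highest class of identity (98.8%) and another at 95.3%, whereas the only copy of Cox8a is 94% identical, in the class with the highest median. Atp5l and Atp5g2, subunits of the ATP synthase, were at 1.16 to 2.16 and 1.74 to 2.48 CPM, with 14 and 4 copies. These members carry low counts, so a difference between the genotypes was not detectable in them unless it was large.

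**Figure D3:**
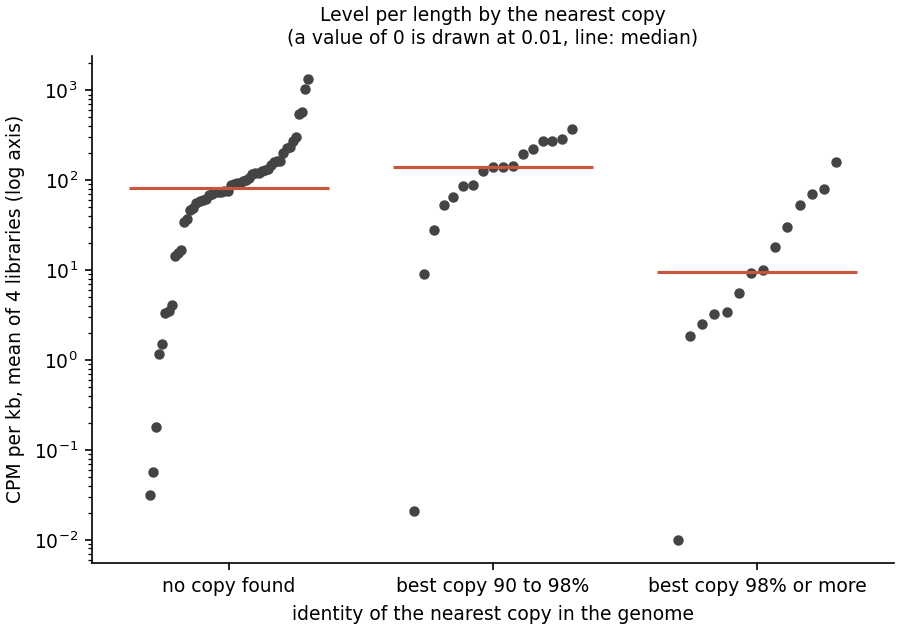
Level per kb of transcript (log axis) of 83 members, grouped by the identity of their nearest genomic copy; red lines are medians. The members with a copy of at least 98% identity have a median of 9.66 CPM per kb, against 82.5 with no copy found.

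Chromosome X holds 3 members, and its fitted values lay below those of the other chromosomes. Ndufa1, an accessory subunit needed for complex I assembly, was at 79.1 and 57.9 CPM in WT and at 46.0 and 40.1 CPM in REST-/- ESCs (log2 fold change -0.67, standard error 0.21, adjusted p = 0.673, edgeR's quasi-likelihood test). Ndufb11, also of complex I, was at 90.9 and 92.1 CPM in WT and at 64.6 and 68.7 CPM in REST-/- ESCs (-0.46, standard error 0.13, adjusted p = 0.631), and 12.9% of its exon bases overlap Rbm10 on the other strand. Both members had both REST-/- libraries below both WT libraries. Cox7b, a subunit of complex IV, was at 308 and 164.5 CPM in WT and at 200.2 and 121 CPM in REST-/- ESCs (-0.55, standard error 0.40), and its groups overlapped. With 1 library left out, the log2 fold change of Cox7b ran from -0.96 to -0.04 and that of Ndufa1 from -0.88 to -0.43. Over the 547 other tested genes of chromosome X the median was -0.40, and 45.2% had both REST-/- libraries below both WT libraries.

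Chromosome 8 also stood below the rest, with a median of -0.13 over its 781 other tested genes, and 4 members lie on it. Ndufa13, a complex I subunit, was at 85.9 and 115.7 CPM in WT and at 72.4 and 102 CPM in REST-/- ESCs (-0.21). Ndufb7 was at 100 and 103 CPM against 88.0 and 105 CPM (-0.08), and Cox4nb, whose product is not a subunit of cytochrome c oxidase, at 235 and 240 CPM against 214 and 235 CPM (-0.08). For these 3 the genotypes overlapped. The other chromosomes had a median of 0.01, and the 72 tested members off X and 8 had a median of -0.06, with 23 above 0 and 49 below.

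Complex II, succinate dehydrogenase, links the tricarboxylic acid cycle to the electron transport chain. Sdha, its flavoprotein, was at 322 and 383 CPM in WT and at 322 and 369 CPM in REST-/- ESCs, and was the highest of the complex per length, 120 CPM per kb. Sdhb, the iron-sulfur subunit, was at 106 and 145.8 CPM against 103 and 133 CPM, and Sdhd, a membrane anchor, at 5.14 and 6.16 CPM against 4.72 and 5.15 CPM. All 3 fitted values were below 0 (-0.03, -0.10 and -0.19), all with adjusted p = 1.0 in edgeR's quasi-likelihood test, and all 3 overlapped between the genotypes. Sdhc, the other membrane anchor, has no symbol in the table and was found by its gene number, at 98.5 and 131 CPM in WT and at 98.3 and 125 CPM in REST-/- ESCs (-0.04). In each gene replicate 2 was above replicate 1 in both genotypes.

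Complex III, cytochrome bc1, had 6 tested members of 7, all with fitted values below 0 and a median of -0.09. Its summed level was 985 and 1087 CPM in WT and 912 and 1021 CPM in REST-/- ESCs, which overlapped. Uqcrfs1, the Rieske iron-sulfur protein, was at 123 and 136 CPM in WT and at 107 and 120 CPM in REST-/- ESCs (log2 fold change -0.19, standard error 0.14, adjusted p = 1.0). It and Uqcrh were the members with both REST-/- libraries below both WT libraries, 2 of 6 tested, where the share over all genes was 15.4%. The core protein gene Uqcrc1 was the highest per length, 228 CPM per kb, and was at 357 and 419 CPM against 339 and 395 CPM (-0.08). Its partner Uqcrc2 was at 229.5 and 266 CPM against 216 and 246 CPM (-0.10).

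Complex IV had a median of -0.14, with 2 fitted values above 0 and 11 below among 13 tested. This was the lowest of the 5 complexes, but not without a filter on low counts (-0.083, against -0.104 for complex II), without WT replicate 1 (-0.109, against -0.312) or without REST-/- replicate 2 (-0.125, against -0.263). Its summed level was 1980 and 1816 CPM in WT and 1581 and 1582 CPM in REST-/- ESCs, so that the genotypes did not overlap. The ratio of the means was 0.833. Without Cox4i1 on chromosome 8 and Cox7b on chromosome X the sums were 902 and 847 CPM in WT and 799.9 and 786 CPM in REST-/- ESCs, a ratio of 0.906. No member of the complex passed the test in the fit with genotype only.

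Cox4i1, the common form of the subunit that regulates the oxidase, was the most abundant of the complex per length at 1041 CPM per kb. It was at 769.6 and 804 CPM in WT and at 581 and 675 CPM in REST-/- ESCs, without overlap (log2 fold change -0.33, standard error 0.14, adjusted p = 0.808, edgeR's quasi-likelihood test). Cox5a, a structural subunit, was at 204 and 210 CPM against 165 and 178 CPM (-0.27, adjusted p = 0.862), and 38.7% of its exon bases overlap an antisense gene, Gm17596. Cox5b was at 31.4 and 28 CPM against 30.85 and 31.1 CPM (0.06).

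Several complex IV subunits have tissue-specific partners, and for the Cox4, Cox6a, Cox6b and Cox7a pairs the common form had the higher counts in these cells. In the Cox8 set all 3 genes were near 0, the common form Cox8a included. Cox4i2, the partner of Cox4i1 known from lung, was at 0.549 and 1.34 CPM in WT and at 0.929 and 1.58 CPM in REST-/- ESCs. Cox6a2 and Cox8b, forms known from muscle, had at most 1 count in any library, while Cox6a1 was at 154 to 173 CPM. Cox7a1, the muscle form, was at 4.68 to 6.72 CPM (-0.14), and Cox7a2 at 171 and 154 CPM against 150 and 134 CPM, without overlap (-0.19). Cox6b2, known from testis, was at 51.1 and 39.65 CPM in WT and at 35.5 and 28.9 CPM in REST-/- ESCs, without overlap (-0.50, standard error 0.21, adjusted p = 0.831), while its common partner Cox6b1 was at 149 to 158 CPM (-0.03). Cox7b2 was at 1.13 and 0.597 CPM against 0.465 and 0.316 CPM, also without overlap (-1.14, standard error 0.54, adjusted p = 0.888, and from -1.51 to -0.61 with 1 library left out). Cox8c was counted 8 times and 1 time in the WT libraries and 0 times and 1 time in the REST-/- libraries.

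Complex V had the highest summed level, 5318 and 6322 CPM in WT and 5215 and 6145 CPM in REST-/- ESCs, which overlapped. Its 15 members had a median of -0.03, with 5 above 0 and 10 below. Atp5b, the catalytic beta subunit, was at 2286 and 2923 CPM in WT and at 2255 and 2852 CPM in REST-/- ESCs, and at 1346 CPM per kb was the most abundant of the complex per length. The alpha subunit Atp5a1 was at 1256 and 1633 CPM against 1260 and 1559 CPM, and the gamma subunit Atp5c1 at 264 and 314 CPM against 240.5 and 287 CPM (-0.13). Of the 3 genes that encode the same c subunit of the proton-conducting ring, Atp5g3 was by far the highest, at 435.5 and 409.7 CPM in WT and 377.5 and 370.2 CPM in REST-/- ESCs, without overlap (-0.18, adjusted p = 1.0). Atp5g1 was at 23.3 to 29.2 CPM, and it and Atp5g2 have 4 copies each. Atp5f1, of the peripheral stalk, was the complex V member with both REST-/- libraries above both WT libraries, at 248.7 and 223 CPM against 298 and 262 CPM (0.25, standard error 0.14, adjusted p = 0.98). It was 1 of 15, where the share over all genes was 16.5%. Both REST-/- libraries were below both WT libraries for 2 of the 15, Atp5g3 and Atp5o, where the share over all genes was 15.4%.

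**Figure D4:**
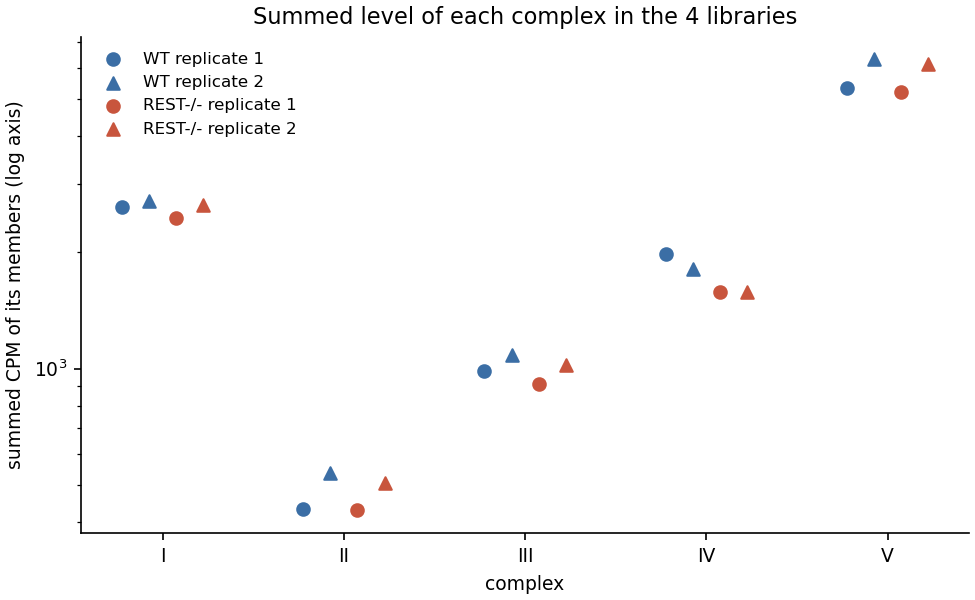
Summed CPM of the members of each complex (log axis) in the 4 libraries; circles are replicate 1 and triangles replicate 2, WT in blue and REST-/- in red. The genotypes are apart in complex IV, at 1816 and 1980 against 1581 and 1582, and overlap in the other 4.

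The genes given apart showed the same small values, with 1 exception. Ndufa4, once assigned to complex I and now to complex IV, was at 209 and 148 CPM in WT and at 214 and 156 CPM in REST-/- ESCs (0.05). Cox7a2l, known for joining complexes III and IV, was at 78.7 and 100.1 CPM against 78.4 and 90.8 CPM (-0.08). Ndufa4l2, known to respond to low oxygen, was counted 21 and 226 times in the WT libraries and 17 and 64 times in the REST-/- libraries. Replicate 2 was high in both genotypes, and the groups overlapped (-1.37, standard error 1.32, adjusted p = 1.0). Without WT replicate 2 its fold change turned to 1.37 on the log2 scale. The assembly factors Ndufaf1 (-0.18) and Ndufa12l (-0.06) were both slightly lower in their fitted value.

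The libraries of each genotype differed by replicate number in a like way. The median absolute difference between replicate 2 and replicate 1, in log2(CPM + 0.5), was 0.184 in WT and 0.194 in REST-/- ESCs over the 79 members. The difference had the same sign in both genotypes for 70 members. Across the 79 members Pearson's r between the genotypes was 0.904 and Spearman's rho 0.895, and without Ndufa4l2 r was 0.875. These are descriptions across genes of the same 4 libraries, not replicates. Members with a GC content under 48% (20) had a median difference of -0.19, and those of 52% or more (35) had 0.12. The correlation with GC content was 0.454 over 78 members and 0.429 over 13902 tested genes, while the fold change between genotypes had r = 0.08 with GC content.

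**Figure D5:**
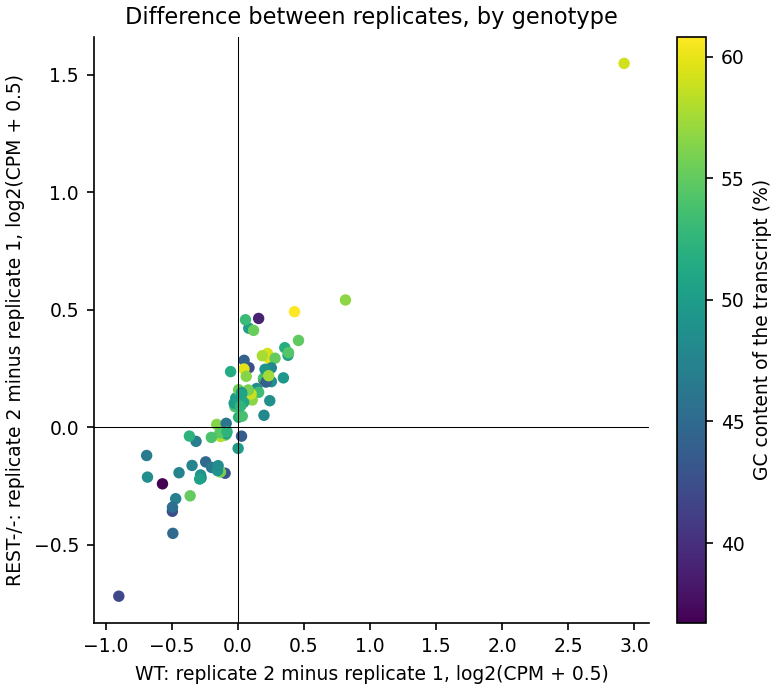
Difference between replicate 2 and replicate 1 in log2(CPM + 0.5) for the 79 tested members, with WT on the horizontal and REST-/- ESCs on the vertical axis, coloured by GC content of the transcript. Points follow 1 diagonal (r = 0.904), and Ndufa4l2 lies far to the upper right.

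Other genes of the pathway were read for the same comparison, and 0 of 109 tested passed an adjusted p of 0.05 in edgeR's quasi-likelihood test, where 0.0583% of all genes did. At an unadjusted p under 0.05, a level reached by 6.71% of all genes, there were 5 (Cox18, Cyct, Idh3g, Ldhb and Pdhb). DESeq2 and edgeR's exact test each called Cyct, 1 of the 109. Of all 15444 genes, DESeq2 called 238 and the exact test 277 (tag-wise dispersion) or 344 (common dispersion). The 13 subunits encoded in mitochondrial DNA all had fitted values below 0, with a median of -0.30, but none had both REST-/- libraries below both WT libraries, where the share over all genes was 15.4%. Their sum was 21519 and 13254 CPM in WT and 17253 and 11518 CPM in REST-/- ESCs, with replicate 1 above replicate 2 in both genotypes. Of 10 carriers and further subunits outside the rule, 2 were above 0 and 8 below. Among them the somatic cytochrome c gene Cycs was at 7.01 and 4.29 CPM in WT and at 9.10 and 6.86 CPM in REST-/- ESCs. The testis form Cyct was at 7.17 and 5.75 CPM against 0.89 and 0.50 CPM, without overlap (log2 fold change -3.20, standard error 0.43, adjusted p = 0.172). Of 34 tested assembly factors, 13 were above 0 and 21 below (median -0.05), and of 16 tested regulators of mitochondrial biogenesis, 6 were above and 10 below (median -0.06). Nrf1, whose motif was searched above, was at 99.7 and 108 CPM in WT and at 94.05 and 100.9 CPM in REST-/- ESCs. The 17 genes of the tricarboxylic acid cycle had 8 above and 9 below (median -0.02), and the 19 of glycolysis had 9 above and 10 below (median -0.00037). The glycolysis sum was 6587 and 11411 CPM in WT and 7023 and 10608 CPM in REST-/- ESCs, with replicate 2 above replicate 1 in both genotypes.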

How the data were processed

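The authors extracted total RNA, made TruSeq libraries, sequenced them on an Illumina instrument, mapped reads with Subread and counted genes with featureCounts. The authors deposited raw counts, 1 row for each Entrez gene. The submitters' processing notes name the build mm9. Annotation, strand and multi-mapping settings are not given in the sources used here. The table had 26301 rows with an identifier, and 368 rows with neither identifier nor values were left out. Columns not used numbered 0.

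Counts were fitted with edgeR 4.0.16 in R 4.3.3 (TMM, filterByExpr, quasi-likelihood test, genotype only, prior count 0.125, Benjamini-Hochberg over 15444 genes, threshold 0.05). A run on simulated counts with 200 changed genes called 100% of them. Those counts held no shared shift of same-numbered libraries, so the run does not show the power or error in these data. With 2 libraries a genotype an exact permutation test cannot go below p = 0.333, so none is given. P-values measure the spread between these libraries. Counts of 3 or fewer were a floor (0.0969 to 0.135 CPM, counting error only). Positions and lengths came from GENCODE M1 on mm9, matched to 22790 identifiers, and Ndufb8 had none. Level per length divides CPM by the transcript with the longest coding sequence. Copies were found with BLAST 2.17.0 (at least 90% identity over 80% of the coding sequence).

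Named genes were those past the threshold, the highest and lowest fold change of each complex with at least 1 CPM in the higher genotype, the highest per length, paired isoforms, core subunits (1 is not reported here), and members on chromosomes X and 8. Other genes named, Uqcr, Uqcrh, Atp5l, Ndufa11 and, outside the rule, Sdhc among them, were chosen after their values were seen. Members and lists were chosen with earlier results of these data known. Alternatives were other scalings (RLE, upper quartile, library size alone), other filters, DESeq2 1.42.0, edgeR's exact test, a replicate block, a prior count of 2 and each library left out.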

Additional observations from a re-analysis of the deposited data

How the results depend on the processing

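Over the whole table, 53 genes were called without a filter, 3 with at least 10 counts in every library, 238 by DESeq2 (180 higher, 58 lower), 277 (206 and 71) by edgeR's exact test under tag-wise dispersion, 344 (247 and 97) under a common dispersion, and 60 to 113 with 1 library left out. Members called were 1, Ndufa12, by DESeq2 and by both exact tests, and 0 under the scalings, the filters, the prior count and with any library left out. With the replicate number as a block, 2621 genes (1308 higher, 1313 lower) and 15 members were called, 2 higher (Ndufa12 and Atp5f1) and 13 lower. Same-numbered libraries deviated together (correlation 0.807 over 15444 genes), but 2 pairs and no stated link do not show that the numbers pair the samples. With 1 library left out the lone library was assumed to vary like the other group. The median of all members then ran from -0.141 to -0.0159, of complex I from -0.129 to -0.0141, of complex II from -0.312 to 0.105, of complex III from -0.202 to -0.0549, of complex IV from -0.27 to -0.11 and of complex V from -0.103 to 0.0257. Signs of complexes II and V therefore turned: II was 0.105 without WT replicate 2 and 0.0693 without REST-/- replicate 1, and V was 0.0257 without REST-/- replicate 1. Without a filter the complex IV median was -0.0832. The other scalings, filters and tests kept the sign of each median. Of 38 named members with a fit, 18 kept their sign with any library left out. Their sizes still moved, for example Ndufs1 from 0.092 to 0.285, Uqcrfs1 from -0.284 to -0.109 and Sdhd from -0.326 to -0.0568. Cox6b2 ran from -0.665 to -0.307 and Atp5f1 from 0.154 to 0.331. The other 20 turned in at least 1 such fit: Cox5b -0.0168 to 0.14, Ndufa4l2 -2.79 to 1.37, Atp5b -0.213 to 0.161, Atp5g1 -0.171 to 0.146, Sdha -0.155 to 0.105, Atp5g2 -0.412 to 0.108, Ndufa7 -0.128 to 0.181, Cox7a2l -0.247 to 0.105, Atp5a1 -0.217 to 0.168, Atp5c1 -0.27 to 0.000501, Cox4i2 -0.109 to 1.18, Sdhb -0.312 to 0.155, Cox6a1 -0.125 to 0.0262, Ndufa4 -0.186 to 0.315, Cox7a1 -0.342 to 0.0791, Cox6b1 -0.0672 to 0.00851, Uqcrc2 -0.208 to 0.0104, Ndufa13 -0.484 to 0.0231, Ndufb7 -0.213 to 0.0455, Uqcrc1 -0.198 to 0.0436. Chosen after seeing the data, the ratio of the summed level of complex IV was 0.799 to 0.871 with 1 library left out and 0.906 without chromosomes X and 8. With union exon lengths the medians per kb by copy class were 6.84 (98% or more), 81.6 (90 to 98%) and 59.6 (none found). The causes were not tested.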

Other observations

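Several rows outside the rule are related to members, as a copy, by name or as a subunit of the same complex. Ndufs6b (EG623286), a copy of Ndufs6, was at 31.0 and 30.95 CPM in WT and at 28.9 and 30.4 CPM in REST-/- ESCs, and its sum with Ndufs6 was 80.6 and 80.7 CPM against 76.6 and 83.7 CPM. Atp5c1-ps, a row named after Atp5c1 for which the copy search found no match, was at 25.8 and 26.7 CPM against 20.9 and 24.0 CPM (log2 fold change -0.23). Uqcr10 (1110020P15Rik), a small subunit of complex III that the rule missed by its older name, was at 126.7 and 105.9 CPM in WT and at 94.4 and 92.1 CPM in REST-/- ESCs, without overlap (-0.32, standard error 0.15, adjusted p = 0.887, edgeR's quasi-likelihood test). Ndufv3 (1500032D16Rik), of complex I, was at 52.2 and 66.35 CPM against 45.5 and 60.95 CPM (-0.15).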
